A study of Homo sapiens with 6 samples.

Results

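The metallothionein genes MT1A, MT1E, MT1F, MT1G, MT1H, MT1M, MT1X and MT2A were followed across 6 RNA-seq libraries of 2 ovarian cancer cell lines, Hey and SKOV3. The members were the rows of the expression table that carry these 8 symbols, and the table holds 59008 rows in all. Each line gave 1 library of untreated parental cells, 1 of polyploid giant cancer cells (PGCCs) and 1 of daughter cells. PGCCs are enlarged cells with multiplied genomes that form after mitotic failure. They were obtained with 500 nM paclitaxel, a drug that stabilises microtubules, for 16 h, followed by 3 days of recovery according to the treatment labels and the methods. The title of the SKOV3 PGCC library gives day 7 instead. Daughter cells received the same drug exposure and recovered for 30 days, and their titles name a single clone per line. Hey cells were grown in MEM Eagle and SKOV3 cells in RPMI-1640, so cell line and medium cannot be told apart.

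Metallothioneins are small, cysteine-rich proteins that bind zinc, copper and cadmium and buffer their free concentration in the cell. Their genes are switched on by zinc through the transcription factor MTF1, which binds metal response elements in their promoters, and also by glucocorticoids and oxidant stress. In cancer cells they are known as a reserve of thiol groups and of zinc, and they have been studied in drug resistance. MT2A is usually the most abundant human isoform, and the MT1 genes are close copies that arose by duplication next to it.

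All 8 members lie in 1 cluster on chromosome 16 (GRCh38, GENCODE release 44). MT2A occupies chr16:56608584-56609497 and MT1X, at the other end, chr16:56682470-56684196. Between them lie MT1E at chr16:56625475-56627112, MT1M at chr16:56632659-56633981, MT1A at chr16:56638666-56640087, MT1F at chr16:56657731-56660698, MT1G at chr16:56666730-56668065 and MT1H at chr16:56669814-56671129. MT1G is on the minus strand and the other 7 on the plus strand. The canonical transcripts have 3 exons and 396 to 425 nt, except that of MT1E with 2 exons and 746 nt.

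The 250 bases before the transcription start are printed for MT2A, MT1X and MT1H, the 3 of 8 members matched in the RefSeq promoter table (GRCh38.p14). They are shown because MT2A and MT1X carry most of the differences below, while MT1H was listed at 0 in all 6 libraries. Each reads 5′ to 3′ on the plus strand, and capitals mark the core of the metal response element, searched as TGCACNC or TGCGCNC on both strands. The windows are chr16:56608334-56608583 for MT2A, chr16:56682220-56682469 for MT1X and chr16:56669564-56669813 for MT1H.
MT2A: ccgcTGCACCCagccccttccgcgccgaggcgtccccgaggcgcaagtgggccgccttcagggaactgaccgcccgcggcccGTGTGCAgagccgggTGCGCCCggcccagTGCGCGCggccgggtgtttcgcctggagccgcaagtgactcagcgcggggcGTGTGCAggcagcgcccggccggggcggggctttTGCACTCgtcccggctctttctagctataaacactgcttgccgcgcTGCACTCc
MT1X: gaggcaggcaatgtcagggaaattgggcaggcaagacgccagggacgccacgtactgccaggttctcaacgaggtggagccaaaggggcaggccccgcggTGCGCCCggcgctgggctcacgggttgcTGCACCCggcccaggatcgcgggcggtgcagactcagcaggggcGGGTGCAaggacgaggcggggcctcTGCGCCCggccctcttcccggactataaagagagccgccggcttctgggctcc
MT1H: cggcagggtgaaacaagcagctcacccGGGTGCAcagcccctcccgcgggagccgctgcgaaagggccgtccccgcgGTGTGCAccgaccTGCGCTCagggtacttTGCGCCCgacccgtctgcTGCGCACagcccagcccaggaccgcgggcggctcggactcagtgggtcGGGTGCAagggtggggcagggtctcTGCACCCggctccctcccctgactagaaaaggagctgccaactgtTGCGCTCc

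The core occurred 7 times in the MT2A window, 4 times in the MT1X window and 8 times in the MT1H window, with no overlap between matches. Of 27305 promoter windows searched in the same table, each the 250 bases before a start, 24.7% held at least 1 match. Only 0.0330% held at least 7, 0.366% at least 4 and 0.0183% at least 8. MT1H, listed at 0, had the most matches of the 3. A TATA box (TATAAA, either strand; 11.1% of windows) was found once in MT2A and once in MT1X, 29 and 30 bases before the start, and not in MT1H. The AP-1 site (TGACTCA, either strand; 4.16% of windows) occurred once in MT2A, where the core of the antioxidant response element (TGACNNNGC, either strand; 11.0%) began at the same base. MT1X held 1 match to the latter core and MT1H none. The GC box (GGGCGG, either strand; 42.3%) was present in all 3, with 2 matches each in MT2A and MT1X and 1 in MT1H, and 1 of those in MT1X overlapped a metal response core. A match is a run of letters, not evidence of binding.

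The values are transcripts scaled to a fixed total per library (TPM), which are scaled to transcript length, so levels of different genes can be set side by side. TPM carry no read counts, and with 1 library per condition no replicate error exists for any value. Differences are therefore given as log2(TPM + 1), and a gene was called higher or lower at a difference of at least 1 (2-fold), without a p-value. The background was the 14988 genes that averaged 1 TPM or more over the libraries. Only MT2A, MT1X, MT1E and MT1F of the 8 members passed that filter. A fall in RNA per cell and a fall in the share of expressing cells cannot be told apart in bulk RNA.

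Across the libraries, TPM columns summed to between 911825 and 920497, and 19920 to 25370 genes had a value above 0. Mitochondrial genes took 2.64% of the Hey parental library and 7.37 to 14.8% of the others. Of 9 epithelial and ovarian carcinoma markers, 5 or 6 reached 1 TPM in Hey and 8 or 9 in SKOV3. None of 5 leukocyte markers reached 1 TPM in any library. The summed fibroblast markers (7 genes) ranged from 0.133 to 3.28 TPM in Hey and from 12.6 to 27.3 TPM in SKOV3, with the top value in SKOV3 daughter cells, where COL1A1 stood at 16.3 TPM. Of 3 endothelial markers, CDH5 stood at 33.2 to 48.5 TPM in Hey and at up to 2.56 TPM in SKOV3, while PECAM1 and VWF stayed under 1 TPM in all libraries. In SKOV3 PGCCs, 4 of 8 epithelial markers were called higher than in parental cells (KRT7, KRT8, CDH1 and PAX8) and none lower. Of all genes, 9.94% were higher and 4.96% lower there. The summed 9 went from 1219 to 2635 TPM. None was called in Hey PGCCs. In Hey daughter cells KRT7 and WT1 were higher and MSLN lower than in parental cells, against 6.31% and 3.73% of all genes. In SKOV3 daughter cells CDH1 and WT1 were higher and EPCAM and MSLN lower, against 15.1% and 6.34%. In Hey the summed 9 stood at 1439, 1111 and 2042 TPM in parental cells, PGCCs and daughter cells. Markers thus differ between lines and between states of both lines, as the metallothioneins do, and their part in those differences was not tested.

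MT2A supplied nearly all metallothionein mRNA in both lines. It stood at 3581 TPM in the parental, 2735 TPM in the PGCC and 2838 TPM in the daughter library of Hey. In SKOV3 parental cells it stood at 768 TPM, in SKOV3 PGCCs at 1195 TPM and in SKOV3 daughter cells at 1689 TPM. All 3 Hey libraries were above all 3 SKOV3 libraries, and the order ran upward from parental to PGCC to daughter cells only in SKOV3. Among all genes MT2A ranked 33rd, 54th and 52nd in the Hey libraries and 165th, 120th and 41st in the SKOV3 libraries, in the same order of states. Its share of the summed members was 94.2 to 96.0% in Hey and 96.1 to 99.4% in SKOV3.

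The summed level of the 8 members followed MT2A. It was 3736, 2904 and 2957 TPM in Hey parental cells, PGCCs and daughter cells, which is 0.406%, 0.318% and 0.324% of each library's table. In SKOV3 it was 800, 1212 and 1700 TPM, or 0.0876%, 0.133% and 0.186%. The distance between the lines was thus widest in parental cells and narrowest in daughter cells.

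**Figure D1:**
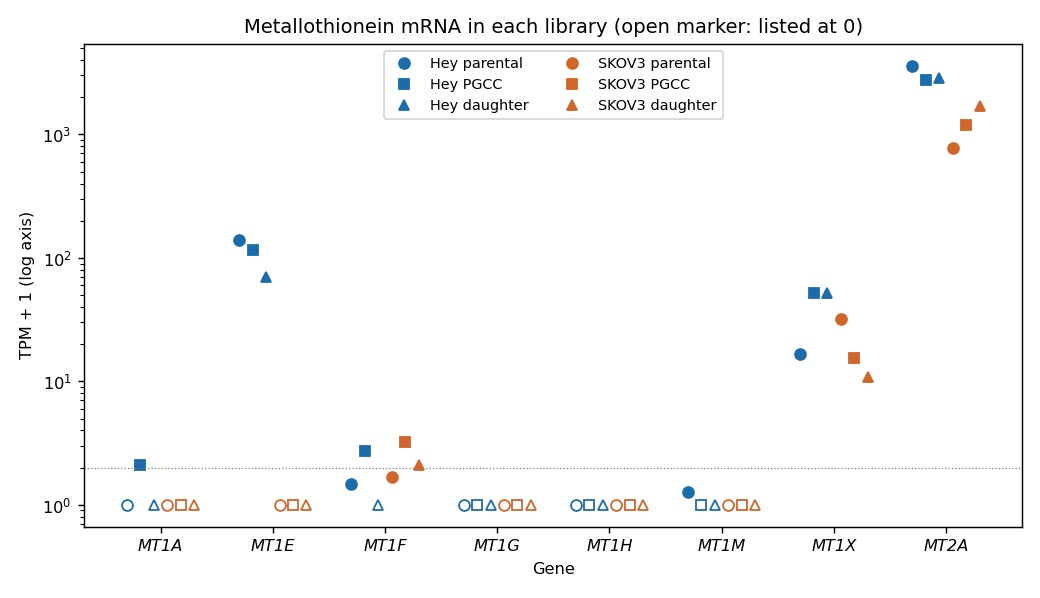
TPM + 1 on a log axis for each of the 8 metallothionein genes, 1 marker per library (circles parental, squares PGCC, triangles daughter; blue Hey, orange SKOV3); open markers are values listed at 0 and the dotted line is 1 TPM. MT2A lies between 768 and 3581 TPM, MT1X between 9.83 and 50.8 TPM, and MT1E is above 0 only in the 3 Hey libraries.

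MT1X, an MT1 isoform expressed in many human tissues, was the only member called in both lines between PGCCs and parental cells, and in opposite directions. In Hey the parental library held 15.8 TPM, the PGCC library 50.8 TPM and the daughter library 50.7 TPM. In SKOV3 the parental library held 30.7 TPM, the PGCC library 14.5 TPM and the daughter library 9.83 TPM. Parental cells were the lowest of the 3 Hey libraries and the highest of the 3 SKOV3 libraries. Compared with parental cells, Hey PGCCs were 1.63 higher on the log2(TPM + 1) scale (a TPM ratio of 3.22) and SKOV3 PGCCs 1.04 lower (a ratio of 0.471).

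The MT1X level of PGCCs was retained in Hey daughter cells, where the difference from PGCCs was 0.00 and that from parental cells again 1.63. In SKOV3 daughter cells the difference from parental cells was -1.55, a ratio of 0.320. Removing the trend with GC content and transcript length gave 1.28 for Hey PGCCs and -1.12 for SKOV3 PGCCs. The signs in both lines were kept under median-ratio scaling (1.56 and -1.09), quantile normalization (1.67 and -1.12) and without mitochondrial genes (1.78 and -1.07).

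MT1X and MT2A therefore changed in different proportions. For every 1000 TPM of MT2A there were 4.40 TPM of MT1X in Hey parental cells, 18.6 for PGCCs and 17.9 for daughter cells. In SKOV3 there were 40.0, 12.1 and 5.82 TPM in the same order. This ratio is untouched by any scaling factor common to a library, and it was lowest in parental cells of Hey and highest in parental cells of SKOV3. Of the MT1X transcript, 54.0% of the windows of 31 bases are identical to part of another annotated gene, mostly the overlapping long non-coding RNA ENSG00000259827, and 31.5% of those of MT2A match other genes, most often the pseudogene MT2P1. MT1X and MT2A also share 50 such windows with each other, of 374 in MT1X and 371 in MT2A, and MT2A is the more abundant in every library. How reads were divided among these copies is uncertain.

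**Figure D2:**
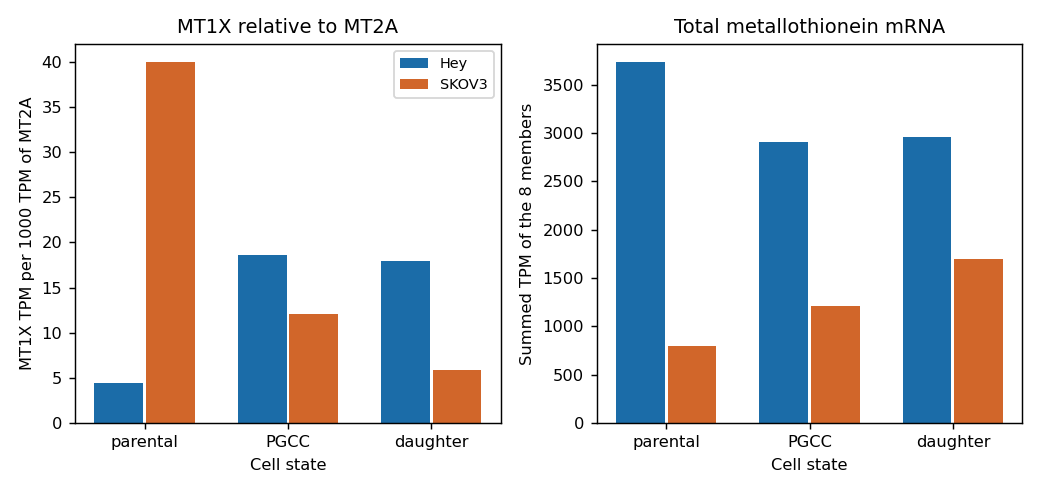
Left, MT1X TPM per 1000 TPM of MT2A; right, summed TPM of the 8 members; bars are single libraries by cell state, blue Hey and orange SKOV3, without error bars because each condition has 1 library. The left bars go from 4.40 to 17.9 in Hey and from 40.0 to 5.82 in SKOV3 between parental and daughter cells, while the right bars go from 3736 to 2957 TPM and from 800 to 1700 TPM.

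Between PGCCs and parental cells, 1 of the 4 members tested was called higher in Hey (MT1X) and none lower, against 7.67% of all genes tested called higher and 5.22% lower. In SKOV3, none was called higher and 1 lower (MT1X), against 9.94% and 4.96% of all genes. MT1E counts among these 4 through its Hey values alone. It was listed at 0 throughout SKOV3, so it could not be called there. The median difference of the 4 members was 0.31 in Hey and 0.32 in SKOV3, and that of all genes 0.00 and 0.02. The SKOV3 median of the members includes the fixed 0.00 of MT1E. A single call among 4 genes is too few to set apart from these shares. MT2A was 0.39 lower in Hey PGCCs and 0.64 higher in SKOV3 PGCCs, both short of 2-fold, and the SKOV3 value was 0.13 once the trend with GC content and length was removed. In SKOV3 PGCCs the 3977 genes of 50 to 60% GC, the range of MT2A, had a median difference of 0.44.

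Between daughter and parental cells, 1 member was called higher in Hey (MT1X) and none lower, against 6.31% and 3.73% of all genes. In SKOV3, 1 was called higher (MT2A, by 1.14, a TPM ratio of 2.20) and 1 lower (MT1X), against 15.1% and 6.34%. The median of the 4 members was -0.45 in Hey and 0.16 in SKOV3, beside 0.05 and 0.15 for all genes. MT1E, at 0 throughout SKOV3, could not be called there and enters the SKOV3 median as 0.00. MT2A was 0.34 lower in Hey daughter cells, so its sign differed between the lines as that of MT1X did, with the directions exchanged. The MT2A difference in SKOV3 was 0.92 under median-ratio scaling and 1.75 under quantile normalization.

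Between daughter cells and PGCCs, no member was called higher in Hey and 1 was called lower (MT1F), against 9.95% and 8.13% of all genes. None was called in SKOV3, where 14.6% of genes were called higher and 9.25% lower. The median of the 4 members was -0.37 in Hey and -0.26 in SKOV3, beside 0.03 and 0.12. Here too the SKOV3 median includes MT1E at 0.00. The MT2A difference was 0.05 for Hey and 0.50 for SKOV3. The 3 comparisons within a line share libraries, so their values are not independent of each other.

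**Figure D3:**
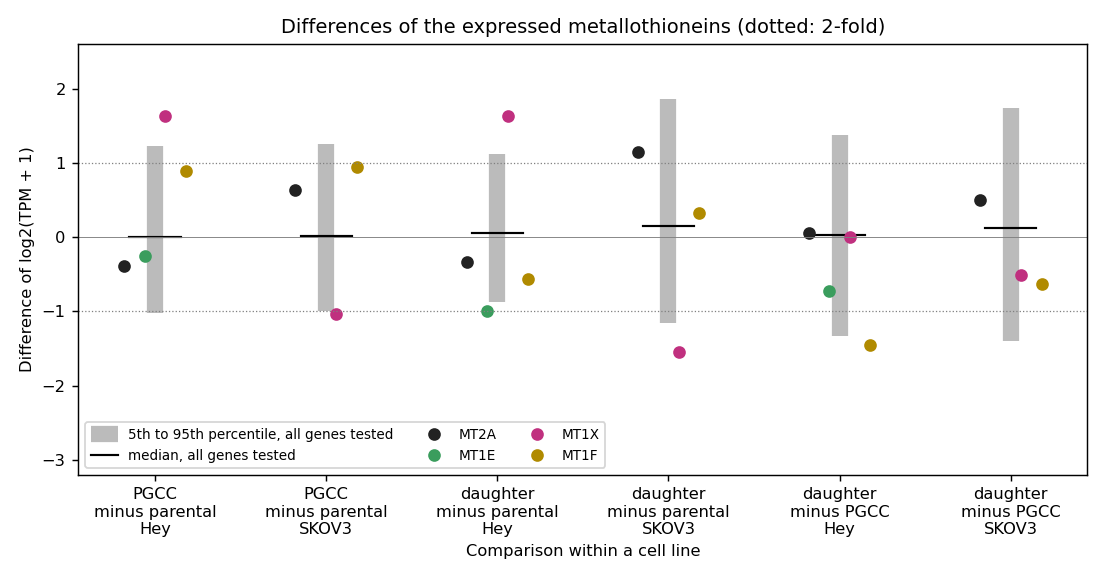
Differences of log2(TPM + 1) for MT2A, MT1E, MT1X and MT1F in the 6 comparisons within a line; grey bars span the 5th to 95th percentile of all 14988 genes tested, black ticks are their medians, dotted lines mark 2-fold, and MT1E has no point in SKOV3, where it was listed at 0. MT1X lies at 1.63 in Hey and at -1.04 and -1.55 in SKOV3 against parental cells.

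MT1E, another MT1 isoform, separated the lines. It was the second most abundant member in Hey, at 138 TPM for parental cells, 115 TPM for PGCCs and 68.7 TPM for daughter cells, and was listed at 0 in all 3 SKOV3 libraries. Hey daughter cells were 0.99 lower than parental cells, a TPM ratio of 0.499 that just missed the call, and 0.73 lower than PGCCs. PGCCs and parental cells of Hey differed by -0.26. Per 1000 TPM of MT2A, MT1E stood at 38.4, 42.0 and 24.2 TPM in Hey parental cells, PGCCs and daughter cells.

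MT1L, a transcribed pseudogene that lies between MT2A and MT1E, showed the same split. It stood at 99.2, 90.2 and 84.8 TPM in Hey parental cells, PGCCs and daughter cells and was listed at 0 throughout SKOV3. MT1E and MT1L share 13 of the 716 windows of 31 bases in the MT1E transcript. All of the MT1L transcript lies within another annotated non-coding RNA, so its level may belong to either.

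The 5 remaining members were low or at 0. MT1F reached 0.477 TPM in Hey parental cells, 1.73 TPM in PGCCs and 0 TPM in daughter cells of this line, and 0.679, 2.24 and 1.09 TPM in SKOV3 parental cells, PGCCs and daughter cells. PGCCs thus held the highest MT1F value in each line, with differences from parental cells of 0.89 in Hey and 0.95 in SKOV3, neither of which was called. The TPM ratios were 3.63 and 3.30, and with a pseudocount of 0.1 both differences were called, at 1.67 and 1.59. Since Hey daughter cells were at 0, the call against PGCCs there has no fold. MT1A was above 0 only in Hey PGCCs, at 1.11 TPM, and MT1M only in Hey parental cells, at 0.276 TPM. The Hey PGCC library also had the most genes above 0, with 25370 against 19920 in Hey parental and 20154 in Hey daughter cells. MT1G and MT1H were listed at 0 in all 6 libraries. As the deposited TPM carry no read counts, no upper limit was computed for a value of 0.

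Among the other metallothionein-family rows, several were seen in 1 line only. MT1B, a neighbouring MT1 gene, stood at 8.33 TPM in SKOV3 parental cells and 4.53 TPM in SKOV3 PGCCs, and at 0 in SKOV3 daughter cells and in Hey. The pseudogene MT1P1 on chromosome 9 stood at 5.70 and 21.9 TPM in SKOV3 parental cells and PGCCs and at 0 in the other 4 libraries. The pseudogene MT1DP followed with 2.36 and 2.24 TPM in the same 2 libraries. All 120 windows of 31 bases in its transcript, and 109 of 363 in that of MT1B, match other annotated genes. The levels of MT1DP and MT1B are therefore uncertain. MT1B, MT1P1 and MT1DP were thus all listed at 0 in SKOV3 daughter cells, whose library was taken from 1 clone.

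The pseudogene MT1XP1 stood at 2.53 TPM in SKOV3 PGCCs and 2.85 TPM in SKOV3 daughter cells. MT1JP, a non-coding relative, lay between 0.133 and 0.246 TPM in Hey and at 0 in SKOV3. MT3, the growth inhibitory factor of brain, was above 0 only in Hey PGCCs, at 0.211 TPM, in the library with the most genes above 0. MT4, MT1HL1, MT1CP, MT1P3 and MT2P1 were at 0 in every library. MT1P1 shares 44 windows of 31 bases with MT1X and 44 with MT2A, so its reads cannot be assigned with certainty.

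**Figure D4:**
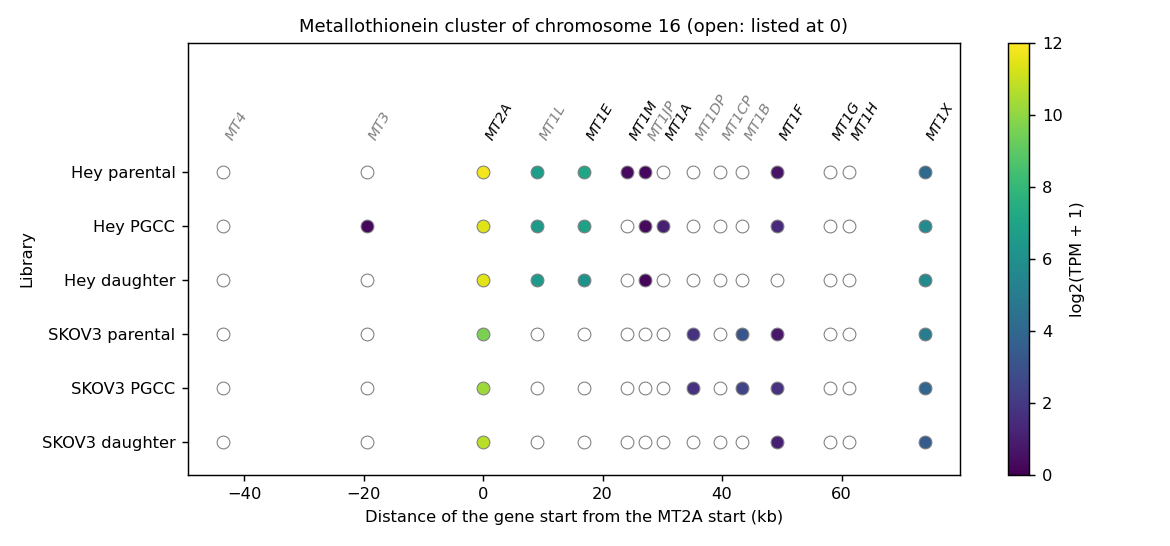
Expression along the metallothionein cluster of chromosome 16: horizontal axis, distance of each gene start from the MT2A start (kb); rows, the 6 libraries; colour, log2(TPM + 1), with open circles for values listed at 0 and names of the 8 members in black. MT1L and MT1E are filled only in Hey (84.8 to 99.2 and 68.7 to 138 TPM), while MT2A at one end and MT1X at the other are filled in all 6 libraries.

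Compared with SKOV3 in the same state, Hey had higher MT2A by 2.22 in parental cells (a TPM ratio of 4.66), 1.19 in PGCCs (2.29) and 0.75 for daughter cells (1.68), although the daughter value was 1.16 under median-ratio scaling, 1.02 with the trend of GC content and length removed, and -0.12 under quantile normalization. MT1X was 0.92 lower in Hey parental cells but 1.74 higher in Hey PGCCs and 2.26 higher in Hey daughter cells, so its order between the lines turned over. In parental cells 2 of 4 members were called higher in Hey (MT1E and MT2A) and none lower, against 11.5% and 24.2% of all genes. In PGCCs 3 were higher (MT1E, MT1X and MT2A) and none lower, against 13.4% and 29.6%. In daughter cells 2 were higher (MT1E and MT1X) and 1 lower (MT1F), against 12.3% and 29.5%. The MT1F difference of -1.06 was -0.91 under median-ratio scaling, -0.71 under quantile normalization and -0.84 with the trend of GC content and length removed, so the call was lost. The median of the 4 members was 1.02 in parental cells and 1.47 in PGCCs, beside -0.29 and -0.35 for all genes. MT1E, at 0 in SKOV3, passed the filter through Hey alone, so the filter favoured its calls as higher in Hey. These counts and medians include it and are no support for a higher level of the members in Hey.

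The lines were also compared over the 3 states with limma, with state as a term and 2 residual degrees of freedom. Here the 3 states stand in for replicates. The spread behind the p-values is the disagreement between states, moderated toward that of other genes of similar level. It holds no replicate error. MT1E was higher in Hey by 6.70 ± 0.36 (SE) on the log2(TPM + 1) scale (adjusted p = 0.000128), a value set by the pseudocount since SKOV3 was at 0. MT2A was higher in Hey by 1.39 ± 0.36 (adjusted p = 0.0345). MT1L differed by 6.53 ± 0.33 (adjusted p = 0.000116). MT1E and MT1L passed the filter through Hey alone, so their p-values add no support to that split. MT1X (1.03 ± 0.60, adjusted p = 0.250) and MT1F (-0.50 ± 0.48, adjusted p = 0.477) did not pass the threshold of 0.05. Neither did MT1P1 (-2.42, adjusted p = 0.0728) or MT1B (-1.90, adjusted p = 0.0884). MT1P1 and MT1B were listed at 0 throughout Hey and passed the filter through SKOV3 alone, so the same limit holds for their p-values. Of all genes, 20.6% passed. The MT2A call was lost when any 1 of the 6 libraries was left out, with adjusted p = 0.0781 without Hey daughter cells, 0.0848 without SKOV3 daughter cells, 0.172 without SKOV3 PGCCs, 0.173 without Hey PGCCs, 0.260 without Hey parental cells and 0.265 without SKOV3 parental cells. That of MT1E was lost without Hey PGCCs (adjusted p = 0.0677) or SKOV3 PGCCs (0.0651).

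For the states, limma over both lines called no member. Its spread is the disagreement between Hey and SKOV3, moderated in the same way. That disagreement was large for MT1X: PGCCs against parental cells gave 0.30 ± 0.73 (SE, adjusted p = 1.00). The same contrast gave 0.12 ± 0.44 for MT2A and 0.92 ± 0.59 for MT1F. Of all 14988 genes, 0.0200% passed at an adjusted p of 0.05 for PGCCs against parental cells, 0.0133% for daughter against parental cells and 0% for daughter cells against PGCCs. At an unadjusted p under 0.05 the counts were 409, 508 and 758 genes, none of them a member.

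MTF1, the zinc-sensing activator of metallothionein genes, was called higher in both Hey states after treatment. It stood at 6.42, 14.0 and 14.2 TPM in Hey parental cells, PGCCs and daughter cells, with differences from parental cells of 1.01 and 1.04 that barely passed 2-fold. In SKOV3 it stood at 12.1, 14.0 and 12.6 TPM, with differences of 0.19 and 0.05. Hey parental cells were thus the only library under 12 TPM. Across both lines limma did not call it (0.60 ± 0.43, SE; adjusted p = 1.00).

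Most members of the SLC30 family, listed here as zinc exporters, move zinc out of the cytosol. The list was taken by family name, so its calls do not measure zinc efflux. Of 10 listed, 6 passed the filter; none was called in Hey PGCCs, and none was higher and 3 lower in SKOV3 PGCCs, where 4.96% of all genes were lower. The list medians were -0.09 in Hey and -1.03 in SKOV3. SLC30A1, the plasma membrane exporter and itself a known MTF1 target, stood at 12.3, 19.9 and 7.38 TPM in Hey and at 27.1, 10.3 and 14.5 TPM in SKOV3. It was thus highest in PGCCs of Hey (0.65 above parental cells, not called) and lowest in PGCCs of SKOV3 (-1.32). SLC30A5 (-0.21 in Hey, -1.25 in SKOV3), which loads zinc into the secretory pathway, and SLC30A9 (-0.96 and -1.12) made up the calls in SKOV3, and SLC30A7, a Golgi zinc transporter, stood at 0.03 and -0.94. In SKOV3 daughter cells, 3 exporters were called higher than in PGCCs, against 14.6% of all genes: SLC30A4 (1.31), SLC30A7 (1.01) and SLC30A9 (1.48).

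The SLC39 family brings zinc into the cytosol, and 11 of 14 listed genes passed the filter. In PGCCs 1 was called lower in Hey and 2 higher in SKOV3, against 5.22% and 9.94% of all genes, with list medians of 0.14 and 0.26. SLC39A4, the intestinal zinc importer, stood at 9.40, 3.18 and 6.20 TPM in Hey parental cells, PGCCs and daughter cells, and at 42.1, 125 and 12.5 TPM in SKOV3. PGCCs were its lowest state in Hey (-1.32) and its highest in SKOV3 (1.55). SLC39A13, an importer of the secretory pathway, was called in SKOV3 PGCCs (1.57) and stood at -0.29 in Hey. SLC39A10 (-0.84 and -0.41) and SLC39A7 (0.57 and 0.63) were not called. Between PGCCs and parental cells, SLC39A4 was the only zinc transporter called in Hey, and it went the other way in SKOV3. No zinc transporter was thus called in 1 direction in both lines. With a single call in Hey, this is no result about these genes.

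**Figure D5:**
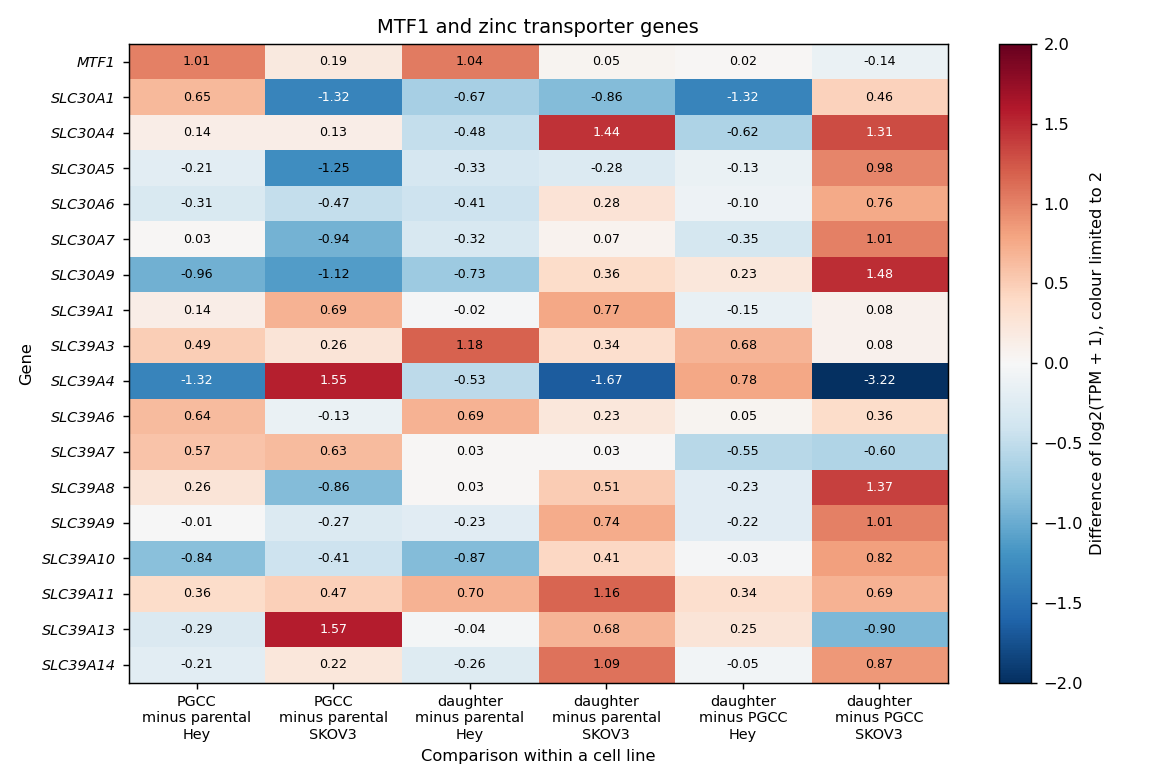
Differences of log2(TPM + 1) for MTF1, the 6 SLC30 exporters and the 11 SLC39 importers that passed the filter, in the 6 comparisons within a line; red is higher and blue lower, with the value printed in each cell. SLC39A4 is -1.32 in Hey PGCCs and 1.55 in SKOV3 PGCCs, and SLC30A1 0.65 and -1.32.

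All 11 copper handling genes passed the filter. In PGCCs none was called in Hey and 1 was higher in SKOV3, where 9.94% of all genes were higher, so the count is near the background. The list medians were 0.28 and -0.06. The called gene was SCO2, which helps load copper into cytochrome c oxidase (-0.06 in Hey, 1.28 in SKOV3). CCS, the copper chaperone of SOD1, stood at 0.54 and 0.79, and COX17, a mitochondrial copper chaperone, at 0.78 and 0.10. ATP7A, a copper exporter, stood at 0.46 and -0.60. In daughter cells against parental cells, ATP7B, the other copper exporter and one studied in platinum resistance, was called in Hey (1.26, from 0.272 to 2.05 TPM) and stood at 0.90 in SKOV3.

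Of 10 genes of the metal and oxidant stress response, 3 were called higher in Hey PGCCs (HMOX1, GCLM and NQO1) and 2 in SKOV3 PGCCs (HMOX1 and HSPA1A), and none lower. Of all genes, 7.67% were higher in Hey and 9.94% in SKOV3. The list medians were 0.54 and 0.33. HMOX1, which encodes the haem-degrading enzyme haem oxygenase 1, was the only one called in Hey as well as SKOV3. It stood at 9.54, 49.9 and 9.31 TPM in Hey parental cells, PGCCs and daughter cells (2.27 for PGCCs) and at 11.4, 30.5 and 61.6 TPM in SKOV3 (1.34 for PGCCs). Its level in daughter cells was close to that of parental cells in Hey and the highest of the 3 in SKOV3. MT2A was also highest in SKOV3 daughter cells, but in Hey it was lowest in PGCCs, where HMOX1 was highest. Only HMOX1 of this list is set beside MT2A here, and a link between oxidant stress and metallothionein levels was not tested.

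The glucocorticoid list, included because these hormones induce MT2A, had 7 of 8 genes past the filter. In PGCCs 1 was called higher and 1 lower in Hey, against 7.67% and 5.22% of all genes, and none in SKOV3, against 9.94% and 4.96%. The list medians were -0.24 and -0.10. TSC22D3 stood at 1.25 in Hey and 0.04 in SKOV3, and FKBP5 at -1.22 and -0.23. PER1 (0.74 and 0.87) and DUSP1 (-0.86 and 0.01) were not called. FKBP5, a chaperone of the receptor, was called higher in daughter cells than in PGCCs of both lines (1.49 and 1.40). In that comparison PER1 (-1.02) and KLF9 (-1.10) were called lower in Hey, and no other gene of the list was called. The list medians were -0.01 and -0.31. Of all genes, 9.95% were higher and 8.13% lower in Hey, and 14.6% and 9.25% in SKOV3.

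The genes around the cluster gave the regional comparison. Within 500 kb of its ends the annotation lists 17 genes with a row in the table, of which 10 passed the filter. In PGCCs none was called in Hey and 1 was higher in SKOV3, near the 9.94% of all genes, with list medians of -0.24 and 0.30. The called gene was SLC12A3, the renal thiazide-sensitive transporter (1.80 to 6.49 TPM, 1.42). BBS2, a ciliary gene upstream of MT2A, stood at 24.1, 20.1 and 10.6 TPM in Hey and 19.5, 17.7 and 31.7 TPM in SKOV3, and NUP93, a nuclear pore gene downstream of MT1X, at 48.1, 28.0 and 44.2 TPM in Hey and 89.6, 101 and 60.3 TPM in SKOV3. BBS2 and NUP93, which flank the stretch that holds MT1E and MT1L, were thus expressed in SKOV3. Set against SKOV3 state by state, 0 of the 10 neighbours were called higher in Hey. Of all genes, 11.5% (parental), 13.4% (PGCC) and 12.3% (daughter) were, so 0 of 10 is near the background. Those called lower in Hey numbered 2 (parental), 5 (PGCC) and 4 (daughter), against 24.2%, 29.6% and 29.5% of all genes. Why MT1E and MT1L were listed at 0 in SKOV3 was not tested.

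The genes most like MT2A over the 6 libraries were ACP6 (Pearson's r = 0.996), GMPR2 (0.995), CBS (0.988), ABL2 (0.987) and AC234775.3 (0.986), computed on log2(TPM + 1). For the summed members they were ACP6 (0.997), GMPR2 (0.995), CBS (0.987), ABL2 (0.986) and AC019080.1 (0.985). Among 14981 genes outside the family, 96 exceeded 0.95 for MT2A, so these values do not single the 5 genes out. The 6 points are 3 states of 2 lines, and MT2A and these genes are higher in every Hey library than in any SKOV3 library. ACP6, a mitochondrial lysophosphatidic acid phosphatase, stood at 35.6, 28.2 and 29.5 TPM in Hey and 8.58, 13.3 and 16.2 TPM in SKOV3. CBS, the first enzyme of transsulfuration from homocysteine toward cysteine, stood at 19.7, 18.0 and 21.0 TPM in Hey and 1.85, 4.69 and 8.40 TPM in SKOV3.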

How the data were processed

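RNA sequencing of 6 libraries was analysed, 1 for each of 3 states of Hey and of SKOV3. The authors trimmed reads with fastp, quantified them on the human transcriptome (hg38) with salmon 0.14.1, and deposited TPM values as 1 value per gene symbol. The annotation release, the bias options and the rule for combining transcripts are not given in the sources used here. TPM carry no read counts, so reads per gene and counting error are not known from the values and count-based tests were not run.

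Differences were computed as log2(TPM + 1) and called at 1 or more among genes averaging 1 TPM or more. The same values of all libraries were fitted with limma 3.58.1 (R 4.3.3), with terms for state and line, moderated variances that follow the mean level, and Benjamini-Hochberg adjusted p-values. The fit was tried on simulated data in which both lines had the same levels and the same changes. The lines differ here, so that trial checks the code and not these results. With 1 library per condition, the spread it uses is not that of replicates. Other steps used Python 3.11.15, numpy 2.4.6, pandas 2.3.3 and statsmodels 0.14.6. GC content, length and shared windows of 31 bases came from the canonical transcripts of GENCODE release 44, joined by symbol. GC content and length were found for 13468 of 14988 genes, including all 4 members tested.

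The members and the gene lists were chosen with earlier results of these data known. The named genes were all family rows, MTF1, and from each list the genes with calls of 1 direction in Hey and SKOV3 or, where none was, up to 4 with the largest mean size. Markers, library facts and limma values beyond the members were added where a result needed them. Alternatives were a pseudocount of 0.1, no filter or a mean TPM of at least 5, median-ratio and quantile scaling, leaving out mitochondrial genes, thresholds of 1.5-fold and 3-fold, removal of the trend with GC content and length (lowess, fraction 0.3, 2 passes), the sum of the members, other limma settings, and leaving out each library.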

Additional observations from a re-analysis of the deposited data

Results flagged for a closer look

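Some genes moved in opposite directions in the 2 lines under the same comparison. Only SLC39A4 and the members above 0 in all libraries, MT1X and MT2A, were looked at for this. Other listed genes also differed in sign. SLC30A1 was at 0.65 in Hey and -1.32 in SKOV3 for PGCCs against parental cells. HMOX1 was at -2.30 and 0.99 for daughter cells against PGCCs. The share of all genes with opposite signs was not computed, so these values do not set the named genes apart. Each line has 1 library per state, so the difference between the lines was not tested. For PGCCs against parental cells, MT1X was at 1.63 in Hey and -1.04 in SKOV3, MT2A at -0.39 and 0.64, and the zinc importer gene SLC39A4 at -1.32 and 1.55 (differences of log2(TPM + 1)). For daughter against parental cells, MT1X was at 1.63 and -1.55 and MT2A at -0.34 and 1.14. For daughter cells against PGCCs, SLC39A4 was at 0.78 and -3.22. The MT2A values of Hey, that of SKOV3 PGCCs and the Hey value of SLC39A4 in daughter cells lie under 2-fold.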

How the results depend on the processing

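Of 162 counts of called members recomputed under the alternatives, 136 stayed within 1.5 times the count reported and 26 moved, and of 387 single differences 22 came past the threshold, 13 fell short of it and none turned its sign while called. With a pseudocount of 0.1, 2 members were higher in Hey PGCCs and 1 in SKOV3 PGCCs, where MT1F came in, and 2 were lower in Hey daughter than parental cells. Without the filter, 2 were higher in Hey PGCCs, where MT1A came in, and 2 were lower in Hey daughter cells than PGCCs. At a mean TPM of at least 5, which leaves out MT1F, 0 were lower in Hey daughter cells than PGCCs and 0 in Hey than SKOV3 daughter cells. Median-ratio scaling gave 1 lower in Hey daughter than parental cells (MT1E, -1.12), 0 higher in SKOV3 daughter than parental cells (MT2A, 0.92) and 0 lower in Hey than SKOV3 daughter cells. Quantile normalization gave 1 higher in SKOV3 daughter cells than PGCCs and 0 lower in Hey than SKOV3 daughter cells, and without mitochondrial genes 1 was lower in Hey than SKOV3 parental cells. Removing the trend with GC content and length gave 1 lower in Hey daughter than parental cells (MT1E, -1.17) and 0 lower in Hey than SKOV3 daughter cells.

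At 1.5-fold, 2 were higher in PGCCs of each line, 1 was lower in Hey daughter than parental cells, 2 in Hey and 1 in SKOV3 were lower in daughter cells than PGCCs, and 1 was lower in Hey than SKOV3 parental cells. At 3-fold, 0 were lower in SKOV3 PGCCs, 0 higher and 0 lower in SKOV3 daughter than parental cells, 0 lower in Hey daughter cells than PGCCs and 0 lower in Hey than SKOV3 daughter cells. For Hey against SKOV3, limma called 2 members, 1 when all genes above 0 were tested (MT2A adjusted p = 0.227), 1 without the intensity trend (0.0553) and between 0 and 1 when 1 library was left out. The cause of these moves was not tested, other than the fewer or additional genes of the filters and thresholds.

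The summed members gave -0.36 in Hey and 0.60 in SKOV3 for PGCCs against parental cells and -0.34 and 1.09 for daughter against parental cells. Leaving out mitochondrial genes moved the median of all genes in Hey PGCCs from 0.00 to 0.11. The limma fit pairs the states by cell line, and without that term it also called 0 members between states. Without replicates, a difference that passes 2-fold may lie within the spread between cultures, and values near 1 TPM are least certain.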
